A study of Mus musculus with 6 samples.

Results

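The 10 genes described here are response genes and antagonists of bone morphogenetic protein (BMP) signalling: Id1, Id2, Id3, Id4, Msx1, Msx2, Smad6, Smad7, Bambi and Grem1. They were chosen by name from 18193 genes with probe sets of a single symbol. All 10 were on the array, with 17 probe sets between them. A probe set is the group of oligonucleotides that reads one transcript or a part of it. RNA came from optic fissures, the ventral groove of the optic cup, cut by laser microdissection from mouse embryos at E11.5, all labelled C57BL/6J. The 3 FGFR mutant arrays were from Six3Cre+;Fgfr1fx/fx;Fgfr2fx/fx embryos and the 3 control arrays from Six3Cre-;Fgfr1fx/fx;Fgfr2fx/fx embryos, so both groups carried loxP sites in the FGF receptor genes Fgfr1 and Fgfr2 and the mutants alone carried Cre recombinase. Six3Cre acts in the early eye field and ventral forebrain, so mesenchyme, vessels and macrophages in the dissected tissue are not targeted. The numbers 8711, 9216 and 9266 each named 1 mutant and 1 control array. The labels do not say whether arrays came from separate embryos or from pools, so a p-value here reflects the spread among these arrays alone, part of which may be technical.

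BMP ligands bind paired serine/threonine kinase receptors, which phosphorylate the transcription factors Smad1, Smad5 and Smad9, and these enter the nucleus with Smad4. Id and Msx genes are among their direct targets. Smad6, Smad7, Bambi and Grem1 act against the pathway, and several of them are themselves induced by it as negative feedback. In the developing eye BMP signalling acts in dorsal optic cup patterning, pigment epithelium and ciliary fates and closure of the optic fissure.

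The arrays differed in quality, and the mutant 8711 array stood apart. Its ratio of 3 prime to 5 prime signal for the Gapdh control probe sets was 93.6 and its median intensity 18.1. The other 5 arrays had ratios of 4.26 to 15.0 and medians of 28.6 to 34.5. Differences of the 10 genes, and of the other genes given with a test, are therefore also given without that array. The dissected tissue carried ventral optic cup markers: 13 of 13 such genes on the array passed the filter on dim signal. That filter reads the mean over all 6 arrays, and 12282 of the 18193 genes passed it. Among the 13 were Aldh1a3, a retinaldehyde dehydrogenase, at 3562 ± 1304 (SD, n = 3) in mutants and 5583 ± 622 (SD, n = 3) in controls, and Nr2f1, a nuclear receptor, at 3752 ± 381 (SD, n = 3) in mutants and 4115 ± 114 (SD, n = 3) in controls. Dimmer Aldh1a3 probe sets had log2 differences, mutant minus control, of -1.84 and -1.63, against -0.71 in the brightest. Without mutant 8711 these were -1.50, -1.27 and -0.98. The summed intensity of these 13 markers was 13927 to 18601 in mutants and 20633 to 22821 in controls, without overlap, and 10 of the 13 had lower values in the mutants (5 lower and 2 higher at an unadjusted p under 0.05). Over all tested probe sets, 2.55% were lower and 3.02% higher at that threshold, and the groups did not overlap in 13.5%. The part of the lower marker values in the differences below was not tested.

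None of the BMP response genes and antagonists passed the test between mutants and controls, and the clearest shifts lay within the Id family, where Id1 and 1 probe set of Id4 had lower and 1 probe set of Id2 higher values in every mutant array than in any control array. Of the 17 probe sets 14, for 9 of the 10 genes, reached the filter level (a mean linear intensity of about 15.1) and were tested. The other 3 belonged to Msx1 and Msx2. By limma, with Benjamini-Hochberg adjustment over all 27022 probe sets tested, 0 of the 14 passed an adjusted p of 0.05, with adjusted p from 0.667 to 0.958, and 0% of all probe sets did so. At an unadjusted p under 0.05 there were 3 of 14, against 5.57% of all probe sets (3.02% higher and 2.55% lower in the mutants). The 3 became 1 without control 8711, without control 9266 or without both 8711 arrays, and 4 without mutant 8711, while the count over all probe sets, 1506, became 692, 757, 1313 and 2354 in the same order. The 3 mutant values and the 3 control values did not overlap in the same 3 probe sets, 2 lower and 1 higher, against 13.5% of all probe sets (7.08% higher and 6.39% lower). By the probe set with the highest mean per gene, 5 of the 9 genes tested had higher and 4 lower values in the mutants. Their median log2 difference was 0.08, and that of all 12282 genes tested was 0.03. When mutant 8711 was left out these medians were 0.04 and 0.02. In bulk tissue, fewer cells of a type and less RNA per cell cannot be told apart, and this holds for every difference below.

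The Id genes encode helix-loop-helix proteins without a DNA-binding region. They pair with E proteins and keep these from activating differentiation genes. The promoters of Id2, Id4 and Id3 are shown because Id2 and Id4 each had a probe set whose groups did not overlap, in opposite directions, while the Id3 groups overlapped. Each run is the 250 bases before the start of the gene, 5′ to 3′ on the strand of the gene, from RefSeq (GRCm38.p6). Capitals mark GGCGCC and GGAGCC, GC-rich motifs that BMP-activated Smads bind, and CAGAC, a Smad box, on either strand. No 2 motifs overlapped.
Id2 (chr12:25096093-25096342, minus strand): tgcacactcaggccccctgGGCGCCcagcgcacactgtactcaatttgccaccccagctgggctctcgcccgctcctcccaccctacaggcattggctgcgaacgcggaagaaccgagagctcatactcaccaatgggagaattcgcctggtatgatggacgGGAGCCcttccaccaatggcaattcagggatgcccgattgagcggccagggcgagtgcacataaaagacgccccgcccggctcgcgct
Id4 (chr13:48260866-48261115, plus strand): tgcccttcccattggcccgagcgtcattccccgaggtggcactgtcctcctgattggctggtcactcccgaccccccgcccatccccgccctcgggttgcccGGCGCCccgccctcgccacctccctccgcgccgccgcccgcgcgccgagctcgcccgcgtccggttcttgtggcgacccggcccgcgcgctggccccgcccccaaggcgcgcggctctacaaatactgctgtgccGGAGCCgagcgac
Id3 (chr4:136143572-136143821, plus strand): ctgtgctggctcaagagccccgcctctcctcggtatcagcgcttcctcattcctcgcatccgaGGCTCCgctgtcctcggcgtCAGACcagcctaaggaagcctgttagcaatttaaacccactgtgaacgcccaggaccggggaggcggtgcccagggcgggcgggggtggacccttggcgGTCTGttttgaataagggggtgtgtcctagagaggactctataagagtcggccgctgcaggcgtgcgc
Of the 10 genes, 7 had an entry in the promoter table. Id2 and Id4 held 1 GGCGCC each and Id3 held 0, a motif found in 9.59% of 32851 promoter windows of the same length. Each of the 3 held 1 GGAGCC, found in 26.0% of windows. Id3 held 2 CAGAC, found in 42.2% of windows, and Id2 and Id4 held 0. The GC content was 62.8% for Id2, 75.6% for Id4 and 62.8% for Id3, against a median of 52.4% over all windows. These are matches of letters in 1 window, and no site was tested.

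Id1 is the Id gene most used as a readout of BMP activity, and is also strongly expressed in vascular endothelium. Its probe set, 1425895_a_at, had intensities of 17.8, 22.3 and 34.7 in mutant arrays 8711, 9216 and 9266, against 55.0, 41.6 and 85.0 in the control arrays in the same order. Every mutant array lay below every control array, with the nearest pair being mutant 9266 and control 9216. The means were 24.9 ± 8.75 (SD, n = 3) in mutants and 60.5 ± 22.2 (SD, n = 3) in controls, a linear ratio of 0.412. On the scale log2(intensity + 1.7), used for all log2 differences here, the difference was -1.21 (SE 0.41, 95% interval -2.18 to -0.25), with an unadjusted p of 0.0204 and an adjusted p of 0.784. A difference of at least this size was seen in 5.4% of all tested probe sets. Without the mutant 8711 array it was -1.01 (adjusted p = 0.514), and with each array left out in turn it ran from -1.46 to -0.95. Without mutant 9216, control 8711, control 9266 or both 8711 arrays, Id1 was not among those at an unadjusted p under 0.05.

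Id2 had 3 tested probe sets that did not move together. The first, 1435176_a_at, had 1986, 1916 and 1937 in mutant arrays 8711, 9216 and 9266, against 1351, 1612 and 1165 in the control arrays. The mutant arrays lay within 1.04-fold of each other and above all controls, which spread over 1.38-fold. The means were 1946 ± 35.7 (SD, n = 3) in mutants and 1376 ± 225 (SD, n = 3) in controls, a linear ratio of 1.41. The log2 difference was 0.51 (SE 0.17, 95% interval 0.11 to 0.92), with an unadjusted p of 0.02 and an adjusted p of 0.778. It was 0.50 without the mutant 8711 array (adjusted p = 0.495) and ran from 0.40 to 0.63 with each array left out in turn. The difference was small, and 28.8% of all tested probe sets had one at least as large. Its SE in this fit was under the median of all tested probe sets, 0.35, but depended on the model. Across the alternatives the SE ran from 0.14 with array weights to 0.31 with median centring, and was 0.22 with a plain variance model. With median centring and with the plain variance model, this probe set was not among those at an unadjusted p under 0.05. The same held without control 8711, without control 9266 and without both 8711 arrays.

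The dimmer Id2 probe sets had overlapping groups. In 1422537_a_at the values were 74.0, 98.7 and 130 in the mutants and 69.2, 94.0 and 95.5 in the controls, a log2 difference of 0.20 (SE 0.31), or 0.40 without mutant 8711. In 1453596_at they were 17.6, 21.9 and 37.1 in the mutants and 33.7, 24.9 and 39.0 in the controls, a difference of -0.37 (SE 0.39), the opposite direction, or -0.16 without mutant 8711. The mean of all 3 Id2 probe sets on the log2 scale differed by 0.11, so the size of the Id2 difference depended on the probe set read. The platform annotation does not say which part of the transcript each probe set covers.

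Id3, like Id1 a common BMP readout, showed no separation of the groups. Its probe set, 1416630_at, had 1547, 842 and 1453 in mutant arrays 8711, 9216 and 9266, against 1177, 873 and 1563 in the control arrays. The arrays numbered 9216 were the lowest of both groups, and the mutant and control ranges nearly coincided. The means were 1281 ± 383 (SD, n = 3) in mutants and 1204 ± 346 (SD, n = 3) in controls. Mutants and controls differed by 0.08 on the log2 scale (SE 0.32), with a 95% interval of -0.67 to 0.83. The Id1 interval, -2.18 to -0.25, overlapped this one, and Id1 and Id3 were not compared by a test. The sign of the Id3 difference turned to -0.08 without the mutant 8711 array.

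Id4, which is expressed in neural progenitors, also had 3 tested probe sets. The clearest difference was in 1423259_at, with 44.9, 28.6 and 29.5 in mutant arrays 8711, 9216 and 9266, against 68.1, 75.0 and 77.9 in the control arrays. Every mutant array lay below every control array, and the controls lay within 1.14-fold of each other. The means were 34.3 ± 9.16 (SD, n = 3) in mutants and 73.7 ± 5.03 (SD, n = 3) in controls, a linear ratio of 0.466. The log2 difference was -1.09 (SE 0.31, 95% interval -1.82 to -0.37), with an unadjusted p of 0.00929, the smallest among the 14, and an adjusted p of 0.667. Without the mutant 8711 array it was -1.29 (adjusted p = 0.189), and with each array left out in turn it ran from -1.29 to -0.98. With quantile normalization this probe set was not among those at an unadjusted p under 0.05.

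The Id4 probe set with the highest mean, 1450928_at, had 96.9, 84.9 and 34.3 in the mutants and 104, 156 and 88.6 in the controls. The groups overlapped by 1 mutant array, 8711, which lay above control 9266. The log2 difference was -0.76 (SE 0.46, adjusted p = 0.852). It was -0.31 without mutant 9266, the lowest array, and -1.03 without mutant 8711. The third Id4 probe set, 1423260_at, lay close to the filter level at 16.7 to 29.9 in mutants and 19.1 to 38.2 in controls, with a difference of -0.16 (SE 0.41), or -0.11 without mutant 8711. All 3 Id4 probe sets thus had lower mean values in the mutants, though the sign of the dimmest depended on the scaling and on single arrays. Across the family, 5 of 8 tested Id probe sets had lower and 3 higher values in the mutants.

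**Figure D1:**
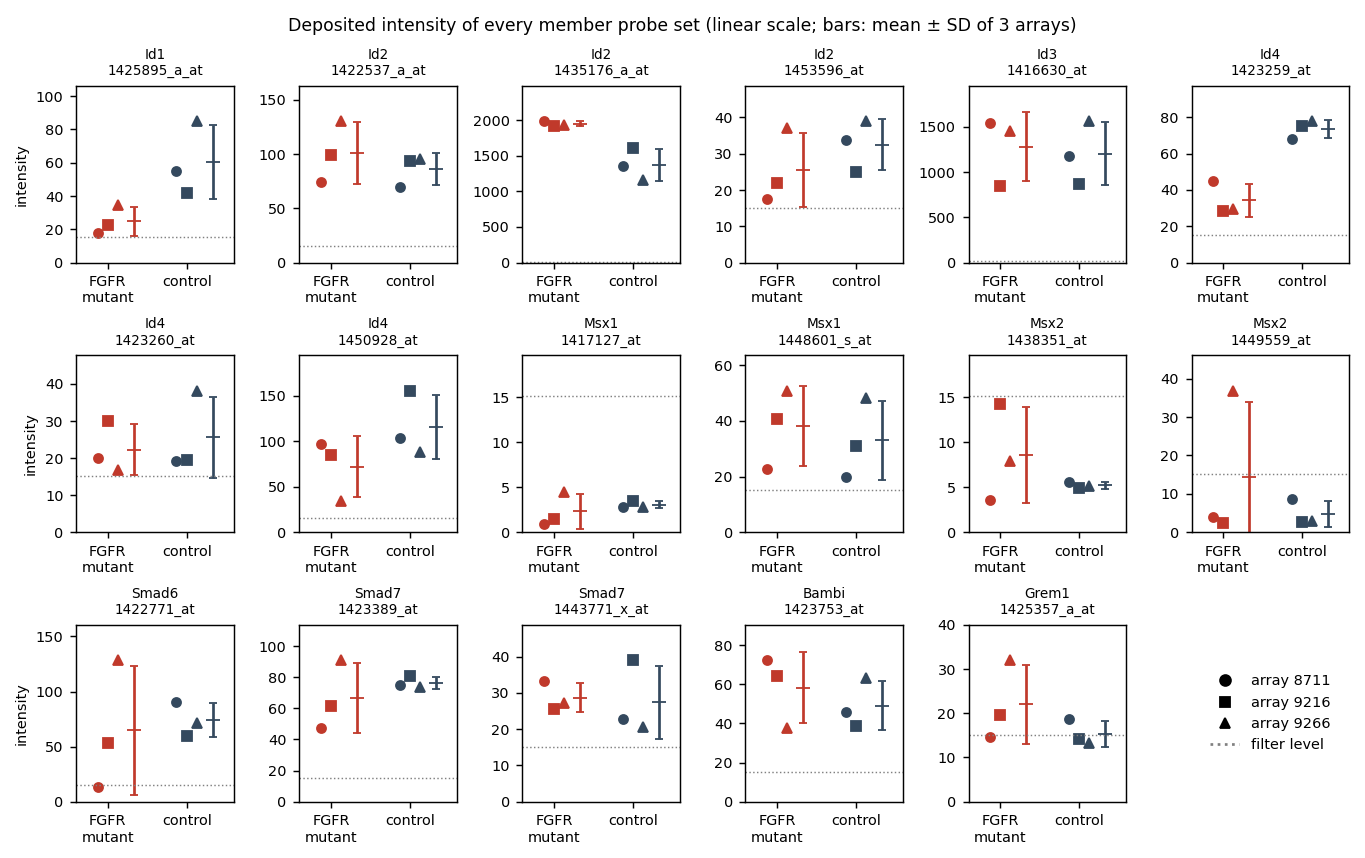
Deposited linear intensity (y axis, a separate range starting at 0 in each panel) of all 17 probe sets in FGFR mutant (red, left) and control (dark blue, right) arrays. Symbols give the array number, the bar beside them the mean ± SD of 3 arrays, and the dotted line the filter level of 15.1. Id1 1425895_a_at and Id4 1423259_at lie lower and Id2 1435176_a_at higher in all mutant arrays, and the groups overlap in the other panels.

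Msx1 and Msx2 encode homeodomain repressors that BMP signalling induces in many tissues, in the eye mainly in the ciliary margin and in mesenchyme around the cup. Both were dim. The Msx1 probe set that was tested, 1448601_s_at, had 22.6, 40.7 and 50.9 in mutant arrays 8711, 9216 and 9266, against 20.0, 30.9 and 48.3 in the control arrays. In both groups 8711 was the lowest and 9266 the highest array, and the groups overlapped throughout. This gave a log2 difference of 0.21 (SE 0.46, 95% interval -0.88 to 1.29), and 0.52 without mutant 8711. It was -0.03 without mutant 9266 and -0.09 without control 8711, so it had no settled sign. The other Msx1 probe set had 0.9 to 4.5 in mutants and 2.8 to 3.5 in controls, under the filter level.

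Neither Msx2 probe set reached the filter level on average. In 1449559_at the values were 4.0, 2.4 and 36.9 in mutant arrays 8711, 9216 and 9266, against 8.7, 2.6 and 3.0 in the control arrays. Mutant 9266 alone was above the filter level. In 1438351_at that array had 7.9 and mutant 9216 had 14.2, while the controls had 4.9 to 5.6. The Msx2 values were thus too near background for a comparison.

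Smad6 and Smad7 are inhibitory Smads: they lack the C-terminal phosphorylation motif, block receptors or compete for partner Smads, and recruit ubiquitin ligases. Smad6 acts mostly on BMP signals, and Smad7 on both BMP and TGF-beta signals. Smad6 (1422771_at) had 13.4, 53.0 and 129 in mutant arrays 8711, 9216 and 9266, against 90.7, 59.8 and 71.6 in the control arrays. The mutant arrays held both the lowest and the highest value, a 9.59-fold range against 1.52-fold in the controls. The log2 difference of -0.65 had the widest error of the 14 probe sets (SE 0.75, 95% interval -2.45 to 1.14). It turned to 0.18 without mutant 8711 and was -1.38 without mutant 9266, so the sign of the Smad6 difference rested on mutant 8711.

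Smad7 1423389_at had 47.2, 61.6 and 91.0 in mutant arrays 8711, 9216 and 9266, against 75.2, 80.9 and 73.6 in the control arrays. The controls lay within 1.1-fold of each other, and the mutants spread on both sides of them. This gave a log2 difference of -0.25 (SE 0.32, 95% interval -1.0 to 0.51) and -0.03 without mutant 8711. The second Smad7 probe set, 1443771_x_at, of a type that may cross-hybridise, had a difference of 0.10 (SE 0.36), which turned to -0.0039 without mutant 8711.

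For Smad6 and the first Smad7 probe set, mutant 8711 held the lowest and mutant 9266 the highest of the mutant values. The same 2 arrays were lowest and highest among the mutants for Id1, Msx1, Grem1 and the 2 dimmer Id2 probe sets. Among the controls, 8711 was lowest and 9266 highest for Msx1 and Id2 1422537_a_at but not for the others of these. The plot of array values against the control mean shows this spread within the mutant arrays.

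**Figure D2:**
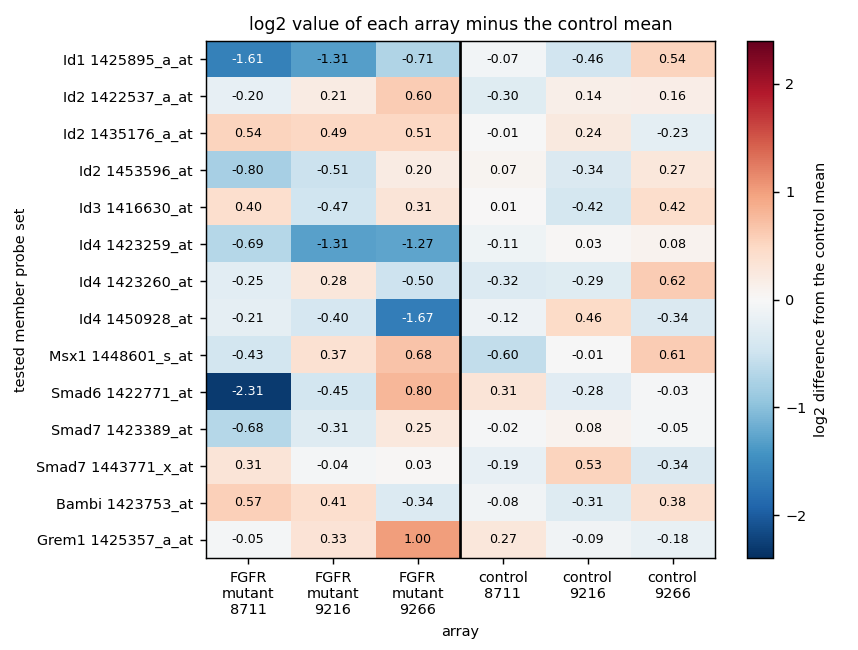
Value of each array minus the mean of the 3 controls, in log2 units (number and colour, red higher and blue lower), for the 14 tested probe sets (rows) in FGFR mutant (left of the line) and control (right) arrays. The Id1 row and the Id4 1423259_at row are lower in all 3 mutant arrays, from -1.61 to -0.71 and from -1.31 to -0.69, and the Smad6 row runs from -2.31 in mutant 8711 to 0.80 in mutant 9266.

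Bambi is a receptor-like membrane protein without a kinase domain that takes the place of a functional receptor, and Grem1 encodes Gremlin 1, a secreted protein that binds BMP2, BMP4 and BMP7. Bambi (1423753_at) had 72.3, 64.4 and 37.8 in mutant arrays 8711, 9216 and 9266, against 45.6, 38.6 and 63.2 in the control arrays. The groups overlapped, with mutant 9266 the lowest of all 6 arrays. The log2 difference was 0.21 (SE 0.37, 95% interval -0.66 to 1.09), and 0.04 without mutant 8711. Grem1 (1425357_a_at) was close to the filter level, with 14.6, 19.5 and 32.0 in the mutants and 18.7, 14.2 and 13.2 in the controls. Its log2 difference was 0.42 (SE 0.40, 95% interval -0.51 to 1.36), 0.66 without mutant 8711 and 0.14 without mutant 9266, the brightest array. Neither interval excluded a level 2-fold higher in the mutants.

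**Figure D3:**
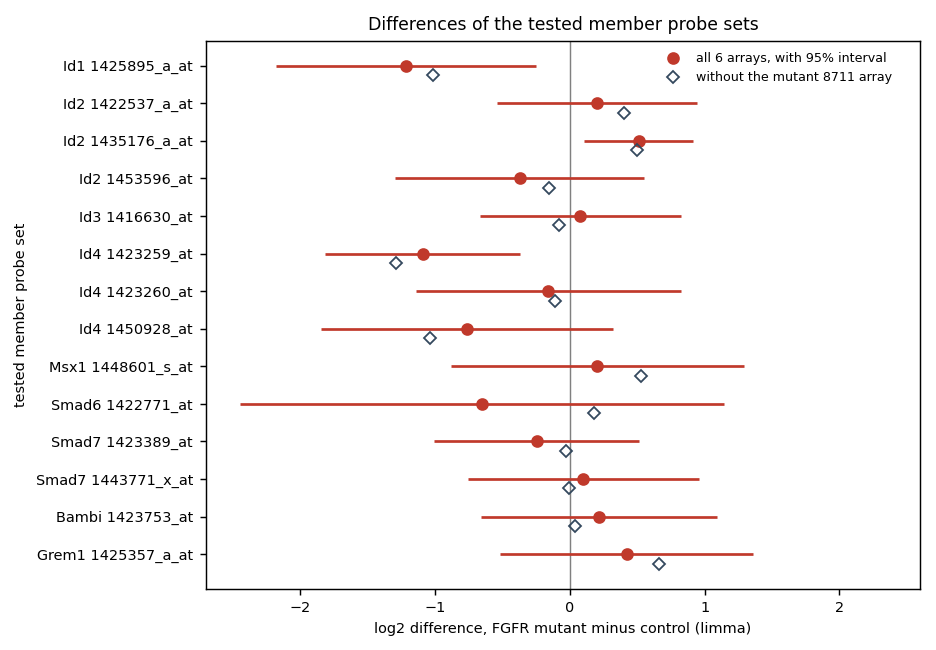
Log2 difference, FGFR mutant minus control, of the 14 tested probe sets. Red points and lines are the limma estimate and its 95% interval over all 6 arrays, and open diamonds the estimate without the mutant 8711 array. The intervals of Id1, Id2 1435176_a_at and Id4 1423259_at do not reach 0 before adjustment, with estimates of -1.21, 0.51 and -1.09, and the diamond of Smad6 lies on the other side of 0.

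The genes around these responders were read from lists of BMP ligands, receptors and Smads, other antagonists and other target genes. None of the list members passed the test. All 4 BMP ligand genes tested, of 10 measured, were higher on average in the mutants, as were 6578 of all 12282 genes tested. The median log2 difference of the ligands was 0.54 (0.70 without mutant 8711). Bmp5 at 0.25 (SE 0.35) and Bmp7 at 0.24 (SE 0.28) had differences smaller than their SE, or 0.27 and 0.21 without mutant 8711. Bmp2 had 74.9, 56.7 and 106 in mutant arrays 8711, 9216 and 9266, against 33.8, 23.5 and 16.1 in the control arrays, with no overlap and a difference of 1.64 (SE 0.40, adjusted p = 0.542), or 1.66 without mutant 8711. Bmp4, the dorsal optic cup ligand, had 53.3, 77.0 and 133 in the mutants and 84.0, 27.2 and 40.1 in the controls, with overlapping groups and a difference of 0.83 (SE 0.52), or 1.13 without mutant 8711. Set beside these, the target genes Id1 and Id2 had -1.21 and 0.51, Id3 0.08, Id4 -0.76 and Msx1 0.21 by the probe set of highest mean, so the values of these target genes lay on both sides of 0.

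Of 13 receptor and Smad genes tested, 5 had higher and 8 lower values, with a median of -0.26 (-0.07 without mutant 8711). Bmpr1b, a type I BMP receptor of the ventral retina, had 1010, 723 and 414 in mutant arrays 8711, 9216 and 9266, against 1499, 1467 and 1314 in the control arrays, with no overlap. Its difference was -1.08 (SE 0.33, adjusted p = 0.709), or -1.38 without mutant 8711. The dimmer Bmpr1b probe sets had -1.26 and -0.69, or -1.20 and -0.53 without that array. Bmpr1b is also among the ventral optic cup markers summed above. Acvr2a, a type II receptor of activins and some BMPs, had a difference of 0.64 (SE 0.26, adjusted p = 0.852), with no overlap, and 0.42 in its other probe set, or 0.65 and 0.30 without mutant 8711.

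Among 19 other antagonists and modulators, 9 had higher and 10 lower values, with a median of 0.00 (0.03 without mutant 8711). Fst, which encodes the activin- and BMP-binding protein follistatin, had 421, 599 and 449 in mutant arrays 8711, 9216 and 9266, against 202, 348 and 268 in the control arrays, with no overlap and a difference of 0.86 (SE 0.27, adjusted p = 0.742), or 0.96 without mutant 8711. Its second probe set had 17.6 in mutant 8711 and 210 and 219 in the other mutants, against 49.5 to 68.4 in the controls. Tmeff1, a follistatin-domain membrane protein, had a difference of 0.93 (SE 0.32, adjusted p = 0.803), or 0.59 without mutant 8711, and 1.14 in its other probe set, or 0.97 without that array. The 2 lower genes of this list at an unadjusted p under 0.05 were Smoc1, a matricellular BMP modulator, at -1.27 (SE 0.47, adjusted p = 0.852) and Chrdl1, a chordin-like BMP antagonist, at -0.98 (SE 0.35, adjusted p = 0.850). Without mutant 8711 they had -1.20 and -1.08, and both were named after their values were seen. Of the 12 other target genes tested, 6 had higher and 6 lower values, with a median of -0.01 (0.24 without mutant 8711). Gadd45b, a stress and BMP response gene, had 47.7 ± 3.20 (SD, n = 3) in mutants and 12.8 ± 8.85 (SD, n = 3) in controls, where the mean was under the filter level with arrays at 19.2, 16.5 and 2.7. Hey1, a Notch and BMP target, had a difference of 0.63 (SE 0.31), or 0.80 without mutant 8711. At an unadjusted p under 0.05 these 4 lists held 5 higher and 3 lower genes of 48 tested, beside 3.02% higher and 2.55% lower over all probe sets. Gadd45b, which passed the filter through the mutants, is among the 5.

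Of the partners of Id proteins and the genes they act on, 6 were tested, 1 with higher and 5 with lower values and a median of -0.47 (-0.28 without mutant 8711, where 3 were lower). At an unadjusted p under 0.05, 2 were lower (Hes1 and Atoh7), beside 2.55% of all probe sets. Hes1, a repressor of neuronal differentiation, had 266, 482 and 382 in mutant arrays 8711, 9216 and 9266, against 895, 468 and 632 in the control arrays, with overlapping groups and a difference of -0.81 (SE 0.32, adjusted p = 0.852), or -0.58 without mutant 8711. Atoh7, which specifies retinal ganglion cells, had 10.3 ± 5.34 (SD, n = 3) in mutants, under the filter level, and 119 ± 151 (SD, n = 3) in controls, a mean set by control 9266 at 293, so that it passed the filter only through the controls.

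**Figure D4:**
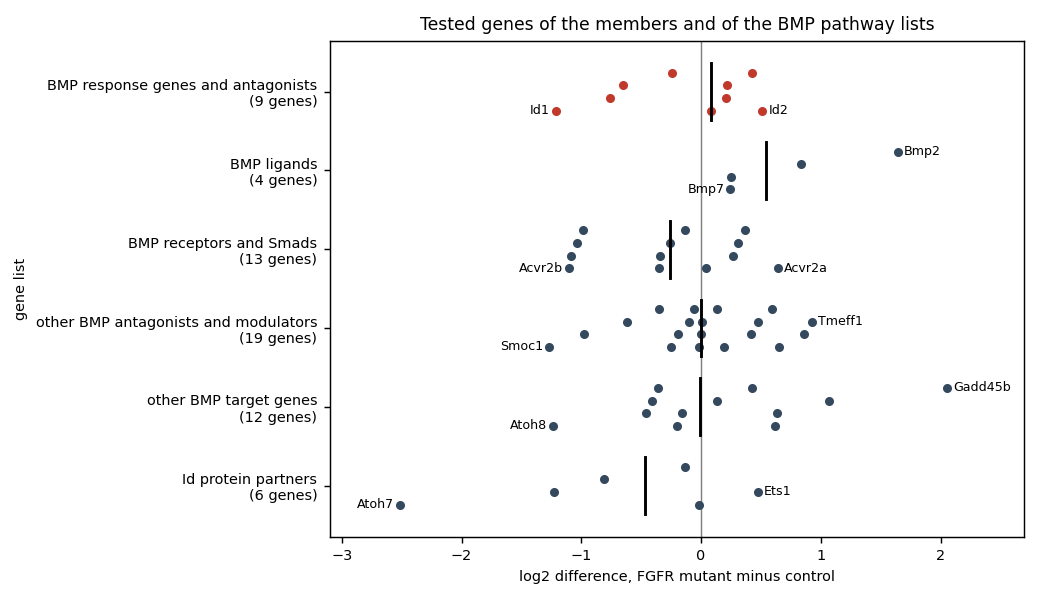
Log2 difference, FGFR mutant minus control, of each tested gene (points, probe set with the highest mean) in the 10-gene set (red, 9 tested) and in the BMP pathway lists (dark blue), with the median of each list as a black bar. The lowest and the highest gene of each list are named. Ligands lie to the right of 0 with a median of 0.54, and the response genes and antagonists spread on both sides from Id1 at -1.21 to Id2 at 0.51.

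Marker genes of other cell types were read beside these genes, and none of them passed the test. The summed intensity of 15 vascular endothelial markers, a cell type with high Id1, was 553 to 988 in mutants and 618 to 1134 in controls, so the groups overlapped. Of these markers 2 were under the filter level and 0 were at 0 in any array. Kdr, a VEGF receptor, had 50.6 to 166 in mutants and 128 to 260 in controls, and Ets1, an endothelial transcription factor, 138 to 249 in mutants and 99.8 to 178 in controls. By array, the endothelial sums were 553, 908 and 988 in mutant arrays 8711, 9216 and 9266, against 1134, 618 and 973 in the control arrays. Id1, in the same order, had 17.8, 22.3 and 34.7, against 55.0, 41.6 and 85.0. The part of endothelium in the Id1 difference was not tested.

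Neural retina progenitor markers, set here beside Id4, had sums of 7114 to 9362 in mutants and 10388 to 12477 in controls over 14 genes, of which 1 was under the filter level. Of the 13 tested, 2 had higher and 11 lower values, with a median of -1.08 (-0.89 without mutant 8711). At an unadjusted p under 0.05, 1 was higher and 7 lower, beside 3.02% and 2.55% of all probe sets. The 7 include Hes1, described above. Sfrp2, a secreted Wnt modulator, had 1141, 405 and 748 in mutant arrays 8711, 9216 and 9266, against 1908, 1302 and 2372 in the control arrays, while the transcription factor gene Meis2 had 1586 to 2096 in mutants and 1094 to 1793 in controls. Meis2 had a log2 difference of 0.45 in this probe set and -0.07, 0.10 and 0.52 in its dimmer ones. Without mutant 8711 these were 0.37, 0.14, 0.30 and 0.40. Pigment epithelium markers, over 16 genes with 1 under the filter level, had sums of 25521 to 41740 in mutants and 16509 to 19003 in controls. Of the 15 tested, 14 had higher and 1 lower values, with a median of 1.09 (1.11 without mutant 8711). At an unadjusted p under 0.05, 10 of these were higher and 0 lower. Dct, a melanin enzyme, had 5176 to 8191 in mutants and 2395 to 4010 in controls, and the melanosome gene Pmel had 2320 to 6871 in mutants and 3409 to 4605 in controls. Neither list had a marker at 0 in any array. The share of these tissues in the Id4 and Id2 differences was not tested.

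Mesenchyme, the tissue around the cup in which Msx genes are active, had sums of 3471 to 4392 in mutants and 1466 to 3079 in controls over 19 markers, of which 4 were under the filter level. Its members Col3a1 and Lum, extracellular matrix genes, had log2 differences of 0.57 and 0.96, or 0.39 and 1.03 without mutant 8711. Macrophage markers had sums of 3270 to 4034 in mutants and 2059 to 3000 in controls over 15 genes, none under the filter level, with Csf1r and C1qb at 0.49 and 0.85, or 0.60 and 0.51 without mutant 8711. The dimmer C1qb probe sets had 0.20 and 0.57, or 0.06 and 0.46 without that array. Of the 15 tested macrophage markers, 11 had higher and 4 lower values, with a median of 0.40 (0.36 without mutant 8711). At an unadjusted p under 0.05, 4 of these were higher and 0 lower. Control 9216 had the lowest sum of the mesenchyme and macrophage lists. Neural crest and melanoblast sums were 354 to 525 in mutants and 305 to 342 in controls over 8 genes, with Tfap2b at 0.90 and Ednrb at 0.09, or 1.53 and -0.13 without mutant 8711. Of the 7 tested, 3 had higher and 4 lower values, with a median of -0.03 (-0.07 without mutant 8711). Tfap2b alone had 60.7, 188 and 274 in mutant arrays 8711, 9216 and 9266, against 68.9, 57.9 and 116 in the control arrays. Erythroid sums were 17094 to 18383 in mutants and 13347 to 17836 in controls over 8 genes, with overlap, and with Hbb-y at 0.04 and Hbb-bh1 at 0.48, or 0.06 and 0.46 without mutant 8711. Lens and surface ectoderm sums overlapped, at 2021 to 4705 in mutants and 2759 to 3784 in controls over 15 genes, with Maf at -0.45 and Cryba1 at -0.28, or -0.25 and -1.07 without mutant 8711. Of the 10 tested in this list, 3 had higher and 7 lower values. At an unadjusted p under 0.05, 2 were higher and 0 lower, beside 3.02% and 2.55% of all probe sets. These 2 were the keratin genes Krt8 and Krt18, at 0.87 and 1.47, or 0.81 and 1.34 without mutant 8711. The part of these cells in any difference above was not tested.

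The patterns of the 9 tested genes over the 6 arrays were compared by the root mean square difference of their log2 values, each gene centred on its own mean. Within the set Id2 and Grem1 were nearest (0.36), followed by Smad7 and Grem1 (0.37), and Id4 and Smad6 were farthest apart (1.37). Id1 and Id2 differed by 1.0, and Id1 and Id3 by 0.75. Among the 12281 other genes tested, the pattern of Id2 was nearest to Asb13 (0.05), Stim2 (0.05) and Sugt1 (0.06). That of Msx1 was nearest to Pou6f1 (0.13), Gpr135 (0.15) and Ms4a3 (0.16), and that of Smad7 to Basp1 (0.05), 2810001G20Rik (0.07) and Gpr107 (0.08). Bambi was nearest to Mgarp (0.08), 2610020C07Rik (0.10) and Dock10 (0.10), and Grem1 to Ttc23 (0.08), Htra1 (0.09) and Slc22a5 (0.11). Htra1, a secreted serine protease that binds TGF-beta family proteins, was in the list of other modulators and had a log2 difference of 0.48, or 0.65 without mutant 8711. With 6 arrays in 2 groups these distances describe these arrays.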

How the data were processed

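The 6 Affymetrix arrays, 3 FGFR mutant and 3 control, were grouped by title. The authors deposited 1 linear intensity for each probe set in each array, made with MAS5 per the submitters' processing notes, whose version and parameters are not given in the sources used here. Per the labels' protocols, 10 ug of total RNA was labelled. The 2% trimmed mean was about 150 in every array, so intensities were used without further normalization, and detection calls were not used. The number of arrays limits the precision.

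The table held 45101 probe sets, of which 64 manufacturer controls were left out. A single symbol was annotated for 34945 of the others, several for 932 and none for 9160, and genes were named only from those with a single symbol. Gene identifiers of 34741 matched the reference table, and 0 symbols were updated. Values were taken as log2(intensity + 1.7), where 1.7 is the 10th percentile of the table, so fold changes of dim genes are understated. Probe sets with a mean log2 value under the 40th percentile (4.07) were left out, leaving 27022. Groups were compared with limma 3.58.1 (lmFit, eBayes with trend and robust, statmod 1.5.0) in R 4.3.3, and figures drawn with Python 3.11.15 and matplotlib 3.10.9. The fit was tested on simulated data.

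The genes and lists were chosen with earlier results of these data known. Some tested genes are in both a pathway list and a cell type list, so these lists are not separate readings. They are Bmpr1b and Tbx2 (ventral optic cup), Eng and Ets1 (endothelium) and Hes1 (neural retina progenitor). Besides every probe set of the 10 genes, the text names from each pathway list the 2 genes with the smallest p (as none passed), from each cell type list the 2 with the highest mean, and for the member of highest mean in each role the 3 genes of nearest pattern. Smoc1, Chrdl1, Bmp5, Bmp7, Krt8 and Krt18 lie outside this rule and were named after their values were seen. Alternatives were 2 other added values, 2 other scalings, 2 other filters, a block for the title number, a plain variance model, weights for array quality, the mean of all probe sets and leaving out arrays.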

Additional observations from a re-analysis of the deposited data

How the results depend on the processing

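No member probe set passed an adjusted p of 0.05 under any of the alternatives run. Over all probe sets the count past the threshold was 0 except with array weights (184), without both 8711 arrays (1) and with each array left out in turn (0 to 1, the 1 being without the mutant 8711 array). Of 221 member values under 17 alternatives, 203 kept their direction and 18 turned it, in 6 probe sets. Id1, all 3 Id2 probe sets and Id4 1423259_at kept theirs in every alternative that gave a value, with adjusted p from 0.150 to 0.999 for Id1, 0.126 to 0.999 for Id2 1435176_a_at and 0.0693 to 0.999 for Id4 1423259_at. The array weights were 0.151 for mutant 8711 and 5.98 for control 8711, against 0.625 and 1.52 for controls 9216 and 9266. That fit thus drew its control mean mostly from 1 array. With these weights Id3 was -0.24 and Id4 1423260_at 0.16. Median centring, which moved the median log2 difference of all genes to 0.19 from 0.03, gave 0.0044 for Id4 1423260_at, 0.67 for Id2 1435176_a_at and -1.05 for Id1. At an unadjusted p under 0.05 it gave 972 probe sets higher and 506 lower in the mutants, against 817 and 689 without it. Without both 8711 arrays Id3 was -0.078, Smad6 0.33, Bambi -0.0012 and Smad7 1443771_x_at -0.10. The mean of both Msx1 probe sets was -0.069. With each array left out in turn, Id3 ran from -0.13 to 0.36, Smad6 from -1.38 to 0.18, Msx1 from -0.093 to 0.525, Id4 1423260_at from -0.38 to 0.15 and Smad7 1443771_x_at from -0.069 to 0.37. The filter at the 60th percentile left 7 of the 14 probe sets. With the title number as a replicate block 0 probe sets and 0 member probe sets passed. With that block the SE of Id3 was 0.18, against 0.32 in the main fit. Same-numbered mutant and control arrays had deviations correlated at 0.05, 0.48 and -0.11, and differently numbered arrays at -0.45 to 0.35. With 3 arrays a group, these values cannot decide whether the numbers mark pairs. The labels do not say what the numbers mark, so the main fit did not use them. The causes of these changes were not tested.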
